A study of Mus musculus with 22 samples.

Results

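Homologous recombination copies a broken chromosome back from its sister, and the Fanconi pathway uses the same enzymes to remove crosslinks that join the strands of DNA. Kinases of the ATM and ATR branches sense the damage, nucleases trim the ends, BRCA1 and BRCA2 with their partners prepare the exchange of strands, paralogues and accessory proteins assist it, and the Fanconi core complex marks the FANCD2-FANCI pair at a stalled fork. In the intestinal epithelium these genes are known mainly from dividing crypt cells, where replication itself is the usual source of such damage.

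Expression of 37 genes of these pathways was followed in 22 RNA-seq libraries of mouse duodenal organoids. The genes were taken by symbol from a list drawn up for these pathways with earlier results of these data known, and all 37 were found among the 52636 genes of the table. Organoids were grown from crypts of wild-type CD1 mice aged 2 months, each line from 1 mouse, in Matrigel with EGF, Noggin and R-spondin 1. Cold atmospheric plasma (CAP) is a partly ionised gas, here a helium jet run at 50 W for 60 s.

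Untreated organoids gave 4 libraries (lines 1 to 4), and each of 6 treated groups gave 3 (lines 1, 2 and 4). In the direct groups CAP was applied to the culture at day 1 after replating, and the treated medium was left for 30 min or 24 h. In the indirect groups naive organoids received medium taken from another CAP-treated organoid culture, and in the PAM groups they received plasma-activated medium, exposed to the jet with no organoids in it. The medium was given in each case for 24 h, either from day 1 to day 2, followed by fresh medium until collection at day 3, or from day 2 until collection. By the paper, treated medium given from day 1 was newly made, whereas that given from day 2 had been made at day 1. The day is taken from the study's names for these groups, since the labels and the headings of the value columns give times of 30 min and 24 h. The match of 30 min to day 1 and of 24 h to day 2 is not stated in the labels. Lines 1 and 2 came from male mice and were at passage 12 and 14 in the labels, and lines 3 and 4 came from female mice and were at passage 4. Line 3 was sequenced only untreated, and line, sex and passage cannot be told apart.

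Levels are given as CP20M, the authors' read counts scaled to a common library total and rounded up. The depth estimated from the spacing of low values was 19.4 to 28.7 M reads a library, so that a unit of CP20M stood for close to 1 read. The deviations of untreated lines 1 and 2 from their group were each more like those of treated libraries of the other line than of their own. Epithelial markers were high in every library (Epcam 11396 to 17187), while fibroblast markers summed to 17 at most. Differences were tested with limma on log2(value + 1), and a gene was called where its p, adjusted after Benjamini and Hochberg over all genes tested, was below 0.01 and its log2 fold change was 1 or more in size.

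In untreated organoids the mean of a gene ran from 64 for Rad51c to 3224 for Topbp1, the activator of the ATR kinase, with a median of 511.5 CP20M. Per kilobase of exon the order had the same ends, at 14.6 for Rad51c and 287 for Topbp1. The 4 untreated lines agreed closely, with a coefficient of variation between 2.17% (Chek2) and 17.7% (Xrcc3) and a median of 10.2%. All 37 genes passed the filter on low values in every comparison. The lowest value in any library was 13, for Rad51b in line 2 given PAM from day 2.

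Promoter sequences of 29 of the 37 genes were in the RefSeq table for GRCm38.p6, as windows of 250 bases before and 50 after a RefSeq start. Promoters are shown because many genes of S phase are known targets of E2F factors, and because genes that were called below and genes that were not can be set side by side. The upstream 250 bases of 4 of the genes called lower after PAM (Topbp1, Fancb, Fancm, Fancl; not those with the largest falls) and 2 that were called in no comparison (Mus81, Slx4) read as follows, with any E2F core in capitals.
Topbp1: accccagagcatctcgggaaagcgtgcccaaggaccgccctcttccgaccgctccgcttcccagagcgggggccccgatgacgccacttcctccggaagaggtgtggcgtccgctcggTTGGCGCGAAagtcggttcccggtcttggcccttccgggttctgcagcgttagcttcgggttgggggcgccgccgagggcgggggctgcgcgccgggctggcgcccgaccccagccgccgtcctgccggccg
Fancb: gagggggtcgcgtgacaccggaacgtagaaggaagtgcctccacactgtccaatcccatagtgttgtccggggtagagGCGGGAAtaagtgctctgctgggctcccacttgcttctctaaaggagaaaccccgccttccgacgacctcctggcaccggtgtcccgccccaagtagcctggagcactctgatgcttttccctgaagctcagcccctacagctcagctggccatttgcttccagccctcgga
Fancm: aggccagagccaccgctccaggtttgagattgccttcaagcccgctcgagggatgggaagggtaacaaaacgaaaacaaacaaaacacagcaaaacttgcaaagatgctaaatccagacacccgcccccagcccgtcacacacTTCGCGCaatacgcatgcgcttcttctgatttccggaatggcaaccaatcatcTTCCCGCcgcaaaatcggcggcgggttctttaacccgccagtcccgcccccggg
Fancl: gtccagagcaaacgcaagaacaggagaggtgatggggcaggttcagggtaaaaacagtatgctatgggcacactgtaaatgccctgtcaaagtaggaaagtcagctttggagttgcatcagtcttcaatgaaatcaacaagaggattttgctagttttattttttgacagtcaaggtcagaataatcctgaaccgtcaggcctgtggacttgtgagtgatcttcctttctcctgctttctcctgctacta
Mus81: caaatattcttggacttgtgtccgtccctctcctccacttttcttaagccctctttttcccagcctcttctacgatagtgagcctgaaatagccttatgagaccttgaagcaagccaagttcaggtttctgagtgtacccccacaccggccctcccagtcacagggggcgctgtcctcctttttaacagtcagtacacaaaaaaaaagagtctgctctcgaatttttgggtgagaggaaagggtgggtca
Slx4: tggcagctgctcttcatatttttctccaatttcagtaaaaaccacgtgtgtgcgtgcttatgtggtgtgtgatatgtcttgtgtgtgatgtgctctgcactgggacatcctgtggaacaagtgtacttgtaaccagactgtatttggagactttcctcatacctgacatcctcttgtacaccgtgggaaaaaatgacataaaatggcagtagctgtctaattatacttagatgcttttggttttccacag

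Positions are chr9:103305077-103305326 (plus strand) for Topbp1, chrX:164980342-164980591 (plus) for Fancb, chr12:65075353-65075602 (plus) for Fancm, chr11:26386834-26387083 (plus) for Fancl, chr19:5488380-5488629 (minus) for Mus81 and chr16:4001679-4001928 (minus) for Slx4. The E2F core was searched on both strands as TTCCCGC or TTGGCGC or TTCGCGC or TTGCCGC, and a match on the other strand appears as its reverse complement. In Topbp1 a pair of overlapping matches began 132 and 129 bases before the start. Fancm held separate matches at 107 and 54 bases before it, and Fancb held 1 at 172. No match lay in the windows of Fancl, Mus81 or Slx4. The gene annotation, however, starts Fancl at 26386135 and Slx4, on the minus strand, at 4003770. The windows of these 2 genes therefore lie inside the annotated gene rather than before it. Those of Fancc, Chek1 and Fanci, and a window of Rad51c, do so too. All of these windows enter the counts below.

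Of all 32851 promoter windows 9.57% held an E2F core, against 17 of the 32 windows of the repair genes (53.1%). Among genes called lower after PAM from day 2, 13 of 19 held one, and among those not called 3 of 10 did. The CCAAT box (CCAAT) was in 59.4% of the windows of the repair genes and 37.4% of all windows, and the cell cycle homology region (TTTGAA or TTCGAA, the latter the same on both strands) in 12.5% and 19.2%. The windows of the repair genes had a median GC content of 58.9%, against 52.7% for all, and its part in the motif counts was not tested. A match describes letters only, since no binding was measured here.

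**Figure D1:**
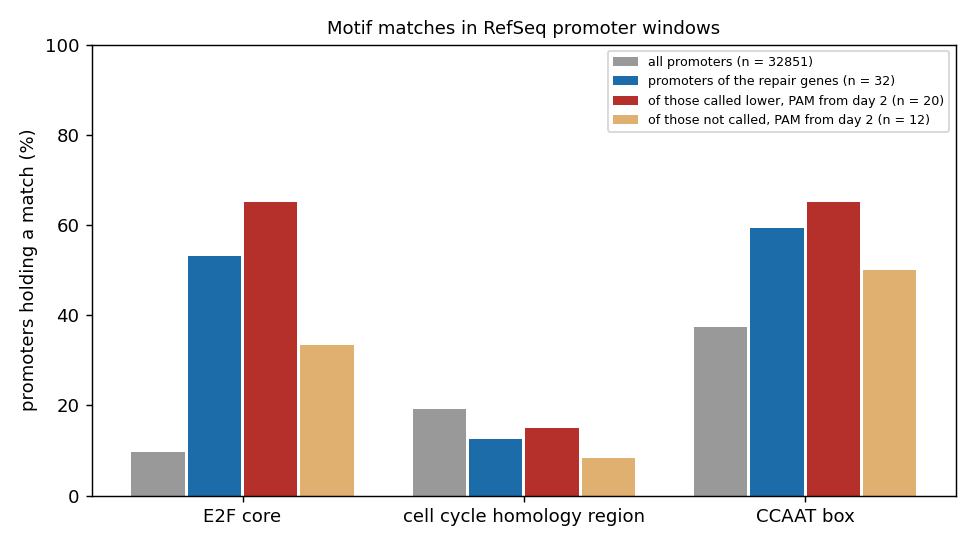
Share of RefSeq promoter windows of 300 bases that hold at least 1 match to each motif (bars, in percent, from 0), for all windows, those of the repair genes, and those of the genes called or not called lower with PAM from day 2. The E2F core stood at 9.57% of all windows and 53.1% of the windows of the repair genes, and the cell cycle homology region was below its share of all windows.

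Against untreated organoids the repair genes fell most after PAM from day 2. There 23 of 37 were called lower and none higher, where 10.5% of all 17694 genes tested were called lower and 6.82% higher. Indirect CAP from day 2 gave 14 called lower (5.71% of all genes, with 6.2% higher), and PAM from day 1 gave 9 (5.4%, with 4.83% higher). Limma called no gene of the list after direct CAP for 30 min (0% of all genes lower and 0.00564% higher), direct CAP for 24 h (0.917% and 1.25%) or indirect CAP from day 1 (0.477% and 0.831%). Without the untreated libraries of lines 1 and 2, which leaves 2 untreated libraries, the counts were 0 for PAM from day 2, 13 for indirect CAP from day 2 and 4 for PAM from day 1. Of all genes, 1, 639 and 470 were called lower in these fits, against 1857, 1019 and 937 with all untreated libraries, and the median log2 fold change of the 37 genes was -1.41, -0.79 and -0.72. These comparisons share the 4 untreated libraries, so their counts are not independent of each other.

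The 37 genes had a median log2 fold change of -1.30 with PAM from day 2, -0.78 with indirect CAP from day 2 and -0.73 with PAM from day 1. It was -0.45 with direct CAP for 24 h, -0.24 with indirect CAP from day 1 and -0.04 with direct CAP for 30 min. Over all genes tested the medians lay between -0.13 and 0.02. PAM from day 2 held the lowest group mean of 31 of the 37 genes, a count that was not made over all genes. No library of that group reached the lowest untreated library in 32 of the 37, as held for 32.6% of all genes tested. The same was seen for 28 genes with indirect CAP from day 2 (25.8% of all genes) and 25 with PAM from day 1 (29.7%). At an adjusted p below 0.05, whatever the fold, 31, 27 and 27 of the 37 were lower in these 3 groups, against 29.1%, 23.5% and 26.6% of all genes.

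**Figure D2:**
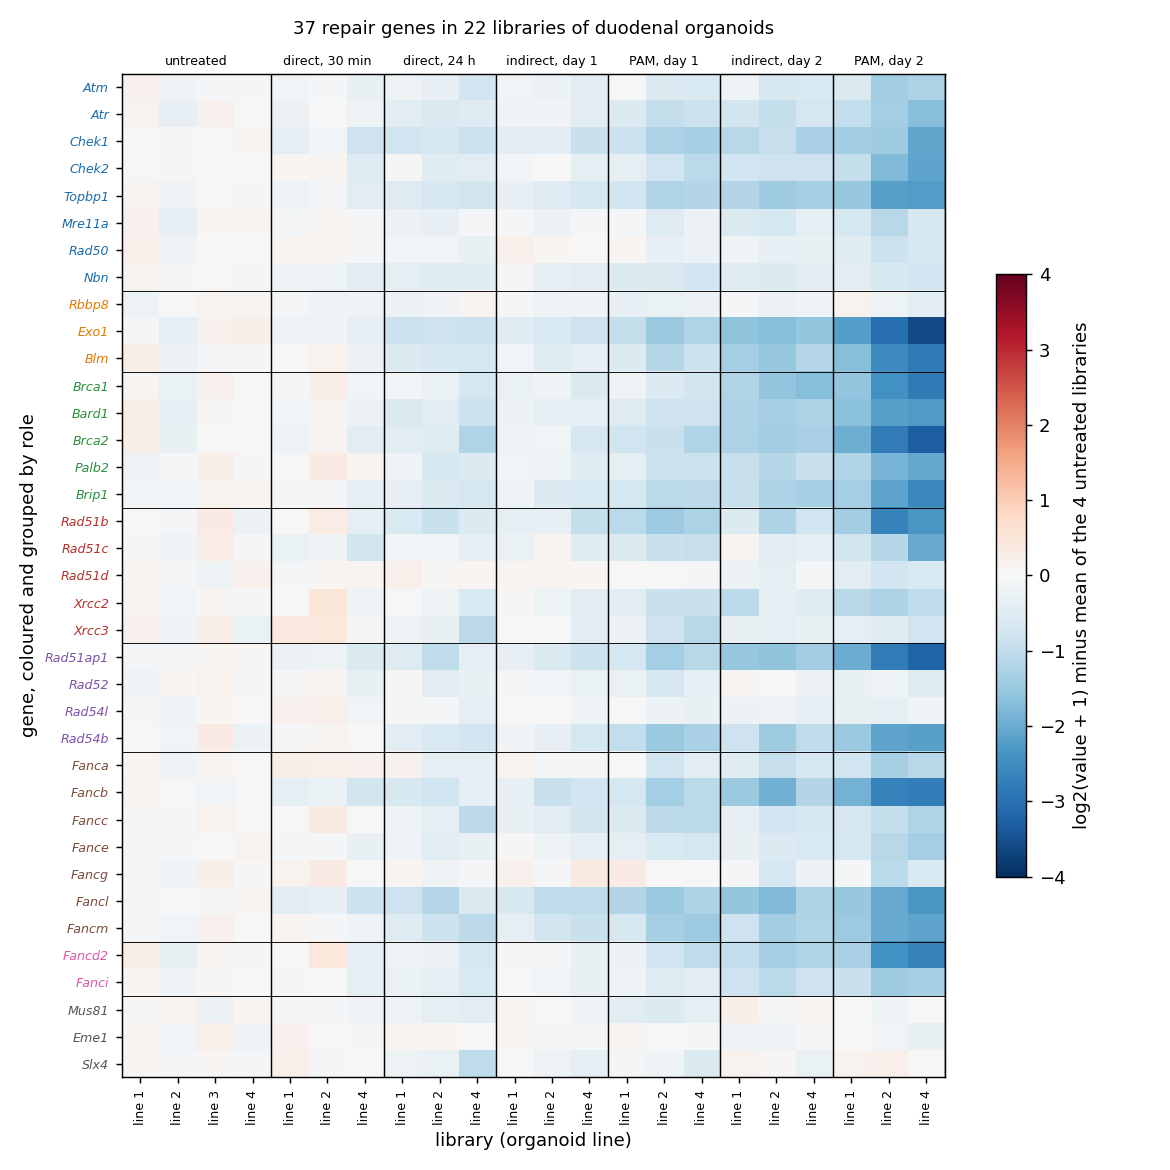
Log2(value + 1) of each of the 37 genes (rows, by role) in each of the 22 libraries (columns, by group and organoid line), as the difference from the mean of the 4 untreated libraries. Blue is lower: PAM from day 2 was the darkest group, with line 1 paler than lines 2 and 4, and the rows of Mus81, Eme1 and Slx4 stayed near 0 in that group.

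Damage signalling held the highest expressed gene of the list. Topbp1 read 3463, 2914, 3224 and 3297 CP20M in untreated lines 1 to 4, and 1115, 708 and 682 in lines 1, 2 and 4 given PAM from day 2. Intermediate values came from indirect CAP from day 2 (1441, 1199 and 1295) and PAM from day 1 (1891, 1383 and 1427). No treated library of these 3 groups reached the lowest untreated one. Its log2 fold change was -1.98 ± 0.17 (SE) after PAM from day 2 (limma adjusted p = 0.000321), -1.30 ± 0.09 after indirect CAP from day 2 and -1.05 ± 0.12 after PAM from day 1, all called. The last of these was lost without line 2 (-0.97) or line 4 (-0.99) given PAM.

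Chek1, the checkpoint kinase that ATR switches on, was 312, 293, 309 and 326 CP20M untreated and 118, 116 and 73 after PAM from day 2. It was called in the same groups as Topbp1, with log2 fold changes of -1.62 after PAM from day 2, -1.11 after indirect CAP from day 2 and -1.13 after PAM from day 1. With quantile normalization the last 2 missed the fold, at -0.996 and -0.961. After direct CAP for 24 h it stood at 179, 194 and 171, again below every untreated library. That difference of -0.77 had an adjusted p of 0.00529 in limma but fell short of the fold required.

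The apical kinases were called only after PAM from day 2. Atr fell from 1034 ± 153 (SD, n = 4) to 410 ± 102 (n = 3) and Atm from 1609 ± 164 to 784 ± 246, with log2 fold changes of -1.35 and -1.07. Chek2, the effector of ATM, went from 490 ± 10.7 to 171 ± 73.9, a change of -1.60. Its 3 treated values spread widely, at 254, 145 and 113. The call of Atm was lost when line 2 or line 4 given PAM from day 2 was left out, with a log2 fold change of -0.92 and -0.98.

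The 3 subunits of the MRN end sensor, Mre11a, Rad50 and Nbn, were called in no comparison. After PAM from day 2 their log2 fold changes were -0.82, -0.67 and -0.62, each with an adjusted p under the threshold (0.00475, 0.00419 and 0.00331) and each short of the fold. Nbn was 579, 523, 528 and 522 CP20M untreated and 390, 346 and 317 after PAM from day 2, so the groups did not overlap.

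End resection and dissolution were unevenly affected. Exo1, the exonuclease that lengthens the single-stranded tail, was 533, 441, 629 and 656 CP20M untreated and 120, 68 and 45 after PAM from day 2, or 13.8% of the untreated mean. That log2 fold change of -2.94 ± 0.31 (limma adjusted p = 0.000419) was the largest of the 37. Exo1 was also called after indirect CAP from day 2 (184, 170 and 190 CP20M, -1.62) and PAM from day 1 (288, 198 and 240, -1.22).

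Blm, the helicase that dissolves joined molecules, was 641, 464, 525 and 557 CP20M untreated. It was 211, 190 and 244 after indirect CAP from day 2 and 165, 92 and 76 after PAM from day 2, called in both at -1.34 and -2.36. Rbbp8, which encodes CtIP, the starter of resection, was not called anywhere. Its values were 671 to 840 untreated and 857, 666 and 573 after PAM from day 2, so the groups overlapped, with a 95% interval of the log2 difference from -0.52 to 0.19.

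The 5 BRCA1-BRCA2 mediators were all called lower after PAM from day 2, with log2 fold changes from -2.68 (Brca2) to -1.70 (Palb2). Brca2, a tumour suppressor of breast and ovary, was 709, 494, 615 and 613 CP20M untreated. It was 252, 228 and 244 after indirect CAP from day 2 and 155, 85 and 61 after PAM from day 2. In both groups every library lay below the untreated range, and the changes were -1.32 ± 0.13 and -2.68 ± 0.29 (limma adjusted p = 0.000165 and 0.000443).

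Bard1, the obligate partner of BRCA1, was 477, 315, 412 and 398 CP20M untreated and 125, 88 and 81 after PAM from day 2, a log2 fold change of -2.03. Brca1 itself went from 789 ± 100 (n = 4) to 172 ± 78.1 (n = 3), a change of -2.27. Palb2, the bridge between BRCA1 and BRCA2, and the helicase Brip1 went to 31.3% and 26.1% of their untreated means. With indirect CAP from day 2, Brca1, Bard1, Brca2 and Brip1 were called at -1.49, -1.27, -1.32 and -1.15. Palb2 there missed the fold narrowly at -0.98. It was called when line 1 of the untreated libraries or line 1 or 4 of the treated ones was left out.

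No mediator was called after PAM from day 1, although Brca2 was without treated line 1 or untreated line 2 and Brip1 without treated line 1. Their log2 fold changes were between -0.96 (Brca2) and -0.49 (Brca1), and 4 of the 5 did not overlap with untreated. Summed over the 5 genes the level was 2142 to 2723 CP20M untreated, 1320 to 1771 after PAM from day 1, 959 to 1146 after indirect CAP from day 2 and 388 to 831 after PAM from day 2. The day 2 groups thus held the lowest sums, with no overlap between the 2 of them.

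**Figure D3:**
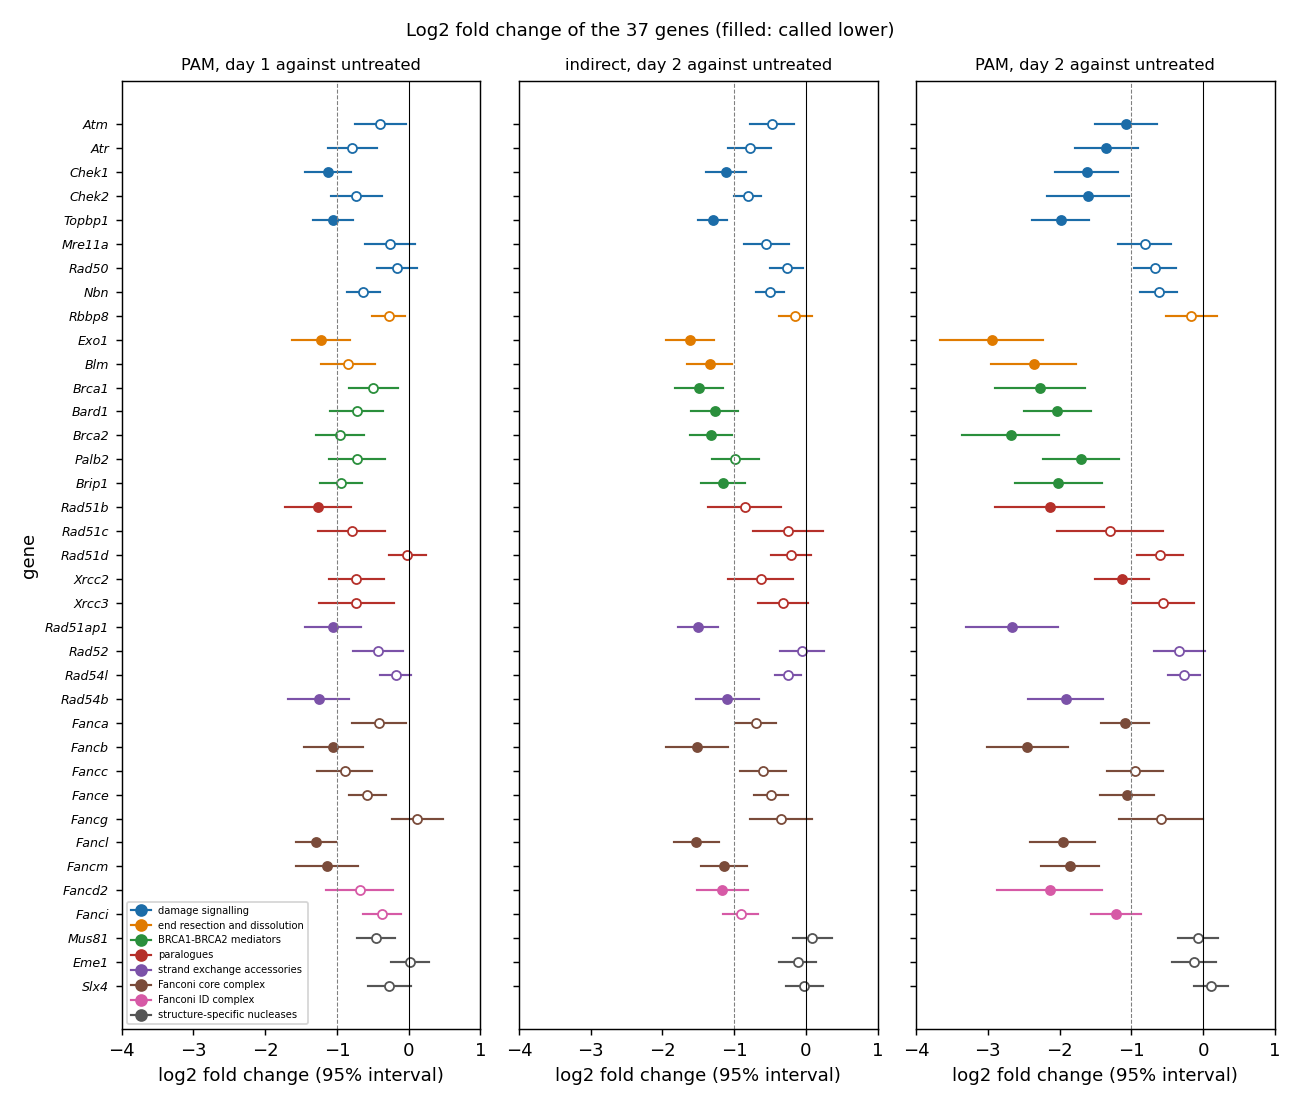
Log2 fold change against the 4 untreated libraries (points) with 95% interval (lines) for the 37 genes, coloured by role, in the 3 comparisons with more than 1 call. Filled points were called lower and the dashed line marks a 2-fold fall; Exo1 reached -2.94 with PAM from day 2, while the 3 nucleases at the bottom crossed 0 there.

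The 5 paralogue genes (Rad51b, Rad51c, Rad51d, Xrcc2 and Xrcc3) differed among themselves. Rad51b was 89, 85, 113 and 77 CP20M untreated, 42, 32 and 37 after PAM from day 1 and 34, 13 and 17 after PAM from day 2. The log2 fold changes of -1.27 and -2.14 were both called, the first not with line as a replicate block (limma adjusted p = 0.0107). At such values the counting error alone is large. Xrcc2 was called only after PAM from day 2, where 60, 55 and 64 stood against 143, 121, 138 and 124 untreated (-1.13 ± 0.16, limma adjusted p = 0.00121).

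Rad51c had an equally large difference after PAM from day 2, at -1.30 ± 0.32, but its adjusted p of 0.0122 missed the threshold. It was called there with quantile normalization, with a pseudocount of 10, with all 7 groups in one fit, and without line 1 of the treated libraries. Rad51d and Xrcc3 were not called, at -0.60 and -0.56. None of the 5 paralogues was called after indirect CAP from day 2.

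Accessories of strand exchange split into a pair that fell and a pair that was not called. Rad51ap1, which stimulates strand pairing, was 229, 228, 255 and 249 CP20M untreated, 148, 93 and 111 after PAM from day 1, 84, 78 and 90 after indirect CAP from day 2 and 60, 34 and 25 after PAM from day 2. Its log2 fold changes were -1.05, -1.51 and -2.66, all called. The first was lost with line as a replicate block (limma adjusted p = 0.0116), without line 2 given PAM (-0.90) and with quantile normalization (-0.89). A pseudocount of 10 lost it as well (-0.996). The 3 treated groups lay below the untreated range without exception.

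Rad54b, a motor protein of recombination, was 212, 194, 262 and 177 CP20M untreated and 74, 48 and 46 after PAM from day 2, a log2 fold change of -1.91. It was also called with PAM given from day 1 (-1.25) and with indirect CAP from day 2 (-1.10), the latter neither with line as a replicate block (-0.99) nor without treated line 2 (-0.93) or untreated line 3 (-0.99). Of its exon bases 35.8% are shared on the same strand with Fsbp, which also fell (-1.60, limma adjusted p = 0.00212), so reads of the 2 genes may not be separable. Its relative Rad54l went from 1149 ± 72.3 to 956 ± 60.9, a difference of -0.27 with an interval from -0.48 to -0.05. Rad52, an annealing protein, differed by -0.33 (-0.69 to 0.02).

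The Fanconi core complex contributed 5 of 7 genes called lower after PAM from day 2. Fancb, an X-linked subunit of the catalytic module, was 181, 166, 157 and 171 CP20M untreated, 60, 44 and 74 after indirect CAP from day 2 and 45, 25 and 24 after PAM from day 2. Fancl, the ubiquitin ligase subunit, was 304, 319, 304 and 328 untreated, 106, 92 and 130 after indirect CAP from day 2 and 109, 76 and 62 after PAM from day 2. Both were below every untreated library in all 6 treated groups, as were Chek1, Nbn and Rad51ap1, and the share of all genes was not counted.

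Log2 fold changes of Fancb were -1.05 after PAM from day 1, -1.52 after indirect CAP from day 2 and -2.45 after PAM from day 2, and those of Fancl were -1.29, -1.53 and -1.96. All 6 were called. That of Fancb after PAM from day 1 was lost without treated line 2 (-0.89) or line 4 (limma adjusted p = 0.0111). It was also lost with quantile normalization (-0.90) and with a pseudocount of 10 (-0.97). Of the exon bases of Fancl 13.7% overlap Vrk2 on the other strand, and Vrk2 also fell after PAM from day 2 (-1.81, limma adjusted p = 0.00119). The strand setting of the counting is not given in the sources used here. Exon bases of Fancc (16.4%), Rad54l (15.4%), Fanca (10.5%) and Eme1 (8%) also overlap another gene on the other strand. The same limit holds for their values.

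Fancm, the translocase that anchors the complex to DNA, was 539, 508, 618 and 556 CP20M untreated. It was 353, 222 and 203 after PAM from day 1, 309, 212 and 241 after indirect CAP from day 2 and 201, 136 and 128 after PAM from day 2. All 3 groups were called, at -1.14, -1.14 and -1.86, the first neither with line as a replicate block (limma adjusted p = 0.0105) nor without treated line 4 (-0.98). With quantile normalization Fancm missed the fold after PAM from day 1 (-0.963) and likewise after indirect CAP from day 2 (-0.993). Fanca and Fance were called only after PAM from day 2, at -1.09 and -1.06, close to the fold required. Fance lost that call with line as a replicate block (adjusted p = 0.0107) and without line 4, and Fanca without line 2. With quantile normalization both missed the fold, as did Atm, Fanci and Xrcc2.

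Fancc and Fancg were not called, at -0.94 and -0.59 after PAM from day 2. Without treated line 1 Fancc was called after PAM from either day, at -1.08 for day 2 and -1.07 for day 1. Fancg overlapped with untreated in every comparison. The substrate pair marked by the core complex was called after PAM from day 2. Fancd2 was 409, 284, 378 and 332 CP20M untreated and 140, 64 and 53 there, a log2 fold change of -2.14 ± 0.32 (limma adjusted p = 0.0014). Fanci, of which 16% of the exon bases overlap Polg on the other strand, was 542, 460, 530 and 514 untreated and 273, 191 and 201 there (-1.22 ± 0.15). With indirect CAP from day 2 Fancd2 was called at -1.17, and Fanci stood at -0.91 with no overlap.

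The 3 structure-specific nuclease genes were called in no comparison. Mus81, the nuclease that cuts branched intermediates, was 490, 515, 402 and 506 CP20M untreated and 471, 423 and 467 after PAM from day 2. Its partner Eme1 was 680, 591, 740 and 565 untreated and 648, 592 and 524 there. Slx4, the scaffold of several nucleases, was 688, 615, 688 and 612 untreated and 718, 750 and 651 there.

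These groups overlapped for each of the 3 genes. Intervals of the log2 difference were -0.36 to 0.21 for Mus81, -0.43 to 0.18 for Eme1 and -0.12 to 0.35 for Slx4, which leaves out a 2-fold fall in each case. After direct CAP for 24 h Slx4 had its lowest mean, with 562, 538 and 320, where line 4 stood apart, and the difference of -0.50 was not called (limma adjusted p = 0.105). Mus81 was lowest after PAM from day 1, at 355, 322 and 363, a difference of -0.46 that was not called (adjusted p = 0.0141).

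**Figure D4:**
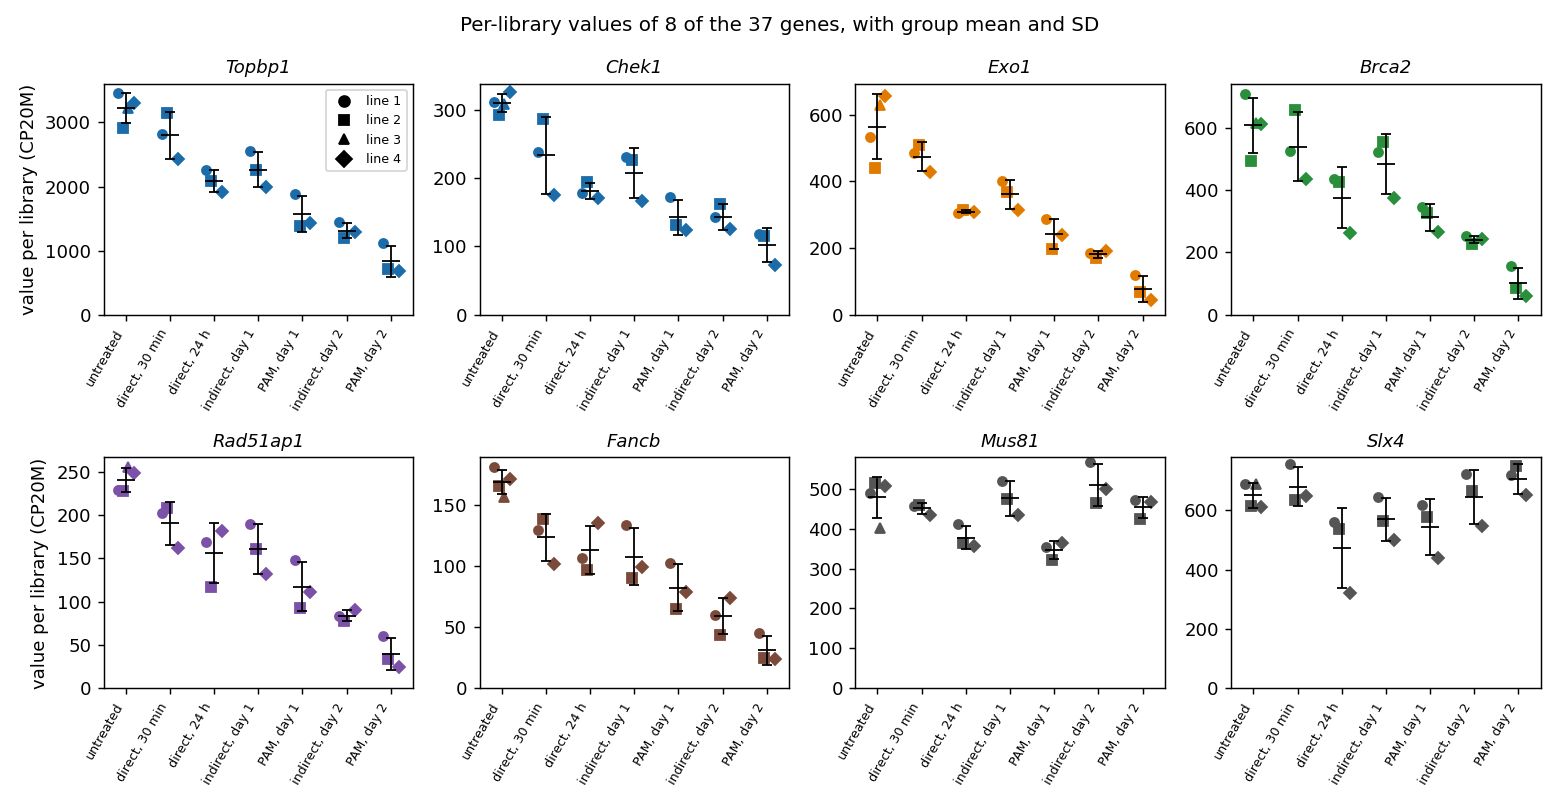
Values in CP20M of 8 genes in each library (symbols by organoid line) with group mean and SD (black bars), by group, each axis from 0. Topbp1, Chek1, Exo1, Brca2, Rad51ap1 and Fancb had their lowest mean with PAM from day 2, whereas Mus81 and Slx4 overlapped with untreated there.

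No call was made in the other 3 treated groups. After direct CAP for 30 min no gene was called by limma, and at an unadjusted p under 0.05 5 were lower (Fancl, Nbn, Rad51ap1, Chek1 and Fancb) and none higher, near the 11% of all genes that were lower on that rule. Their adjusted p was at least 0.11. Fanca alone lay above every untreated library, as did 12.4% of all genes (913, 887 and 865 against at most 831), a difference of 0.20 with an adjusted p of 0.201.

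After direct CAP for 24 h 20 of the 37 lay below every untreated library, as did 19.1% of all genes tested. The log2 differences ran from -0.85 (Exo1) to 0.13 (Rad51d). At an unadjusted p below 0.05, 22 were lower (19.8% of all genes), and at an adjusted p below 0.05, whatever the fold, 16 (10.2%). Indirect CAP from day 1 gave 15 (18.9%) and 9 (10.4%) on these rules, with Fancl lowest at -0.90.

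The 3 groups exposed for 24 h from day 1 (PAM, indirect CAP and direct CAP) were also joined and set against untreated, 9 libraries against 4. The 9 libraries came from lines 1, 2 and 4, each present in all 3 groups, and were fitted as if independent. The adjusted p of this comparison may therefore be too small. Fancl was the single gene called, at -1.01, where 2.07% of all genes were called lower and 4.27% higher. That call rests on the fold limit. It was lost without any 1 of PAM from day 1 lines 1, 2 and 4, direct CAP for 24 h line 2 or untreated line 4, with log2 fold changes between -0.99 and -0.95. Without untreated line 2 Exo1 was called as well. At an adjusted p below 0.05, whatever the fold, 21 genes were lower (18.7% of all genes).

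Treated groups were also set against each other, with 3 libraries on each side. No repair gene was called in any of the 6 such comparisons, in which limma called 0 to 2 of all genes (0.0111% higher with indirect CAP from day 2 than from day 1, and 0% otherwise). At an unadjusted p under 0.05, 24 repair genes were lower and 2 higher (Mus81 and Slx4) with PAM from day 2 than from day 1, where 14.1% of all genes were lower and 12.7% higher. Indirect CAP from day 2 against day 1 gave 23 lower and none higher (12.6%), and PAM against indirect CAP from day 2 gave 21 lower and none higher (8.55%). Direct CAP for 24 h against 30 min gave 14 lower and none higher (15%), PAM from day 1 against direct CAP for 24 h gave 5 lower and none higher (7.01%), and none lower with 2 higher (Rad50 and Mus81) came from setting indirect CAP from day 1 beside direct CAP for 24 h (1.52% lower and 5.43% higher).

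Exposure from day 2 and from day 1 was compared gene by gene. Brca1 was 650, 695 and 529 CP20M in lines 1, 2 and 4 with indirect CAP from day 1 and 340, 263 and 242 from day 2. With line as a replicate block 3 genes were called there, Brca1 (-1.15), Blm (-1.02) and Fancd2 (-1.05), where that fit called 416 of all 17987 genes lower and 207 higher. At an adjusted p below 0.05, whatever the fold and without the block, 11 repair genes were lower (2.21% of all genes). Organoids treated from day 1 had fresh medium for the last 24 h and those treated from day 2 had none. The treated medium given from day 2 was also older, having been made at day 1. Day of exposure, recovery time and age of the medium therefore cannot be told apart.

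Within each line the direction could be read without the spread between lines. PAM from day 2 was below PAM from day 1 in all 3 lines for 29 of the 37 genes (29.9% of all genes), and Mus81 and Slx4 were above it in all 3. It was below indirect CAP from day 2 in all 3 lines for 30 genes (34% of all genes). Indirect CAP from day 2 was below that from day 1 in all 3 lines for 27 genes (30.4% of all genes), direct CAP for 24 h below 30 min for 27 (33.4%), and PAM from day 1 below direct CAP for 24 h for 25 (25%). With indirect CAP from day 1 set beside direct CAP for 24 h, 21 genes were higher in all 3 lines and 0 lower (13.3% of all genes lower). The share of all genes higher in all 3 lines was not counted, so counts of higher genes have no background here. Between PAM and indirect CAP from day 2, Exo1 was 120 against 184 in line 1, 68 against 170 in line 2 and 45 against 190 in line 4, with a log2 difference of -1.33, an interval from -2.15 to -0.50 and an adjusted p of 0.523.

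Within a group the lines took different ranks. With PAM from day 2, line 1 held the highest of the 3 values for 32 of the 37 genes and line 4 the lowest for 26. With PAM from day 1, line 1 was highest for 34. Among untreated libraries line 1 was highest for 13 and line 3 for 17. With direct CAP for 30 min line 2 was highest for 30. These ranks were not counted over all genes, so whether they are particular to the repair genes was not tested.

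Proliferation markers moved with the repair genes. All 20 genes of that list were called lower after PAM from day 2 (median log2 fold change -2.39), 19 after indirect CAP from day 2 (-1.47) and 8 after PAM from day 1 (-0.97). Their summed level was 44634 to 57456 CP20M untreated and 7748 to 15965 after PAM from day 2. All 5 stem cell markers were also lower in these 3 groups, with medians of -3.99, -2.67 and -3.52. Their part in the fall of the repair genes was not tested, and in such bulk libraries fewer cells of a type and less RNA per cell cannot be told apart.

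Of the other marker lists, that of immune cells (Ptprc, Cd3e, Cd68, Lyz2) summed to 155 to 196 CP20M untreated and 110 to 159 after PAM from day 2, with Ptprc and Cd3e at 0 in 3 and 8 of the 22 libraries. Fibroblast markers (Col1a1, Col1a2, Pdgfra) summed to 2 to 10 and 12 to 15. Goblet cell markers summed to 13479 to 21904 untreated and 2823 to 10838 after PAM from day 2, with no call among the 3, and enterocyte markers to 66874 to 86828 and 112031 to 126013. The enterocyte markers did not move together. Alpi was 18593 to 32923 untreated and 55134 to 95329 after PAM from day 2, but Apoa1 was 12080 to 16137 and 2379 to 11796. Sis and Fabp1 overlapped between these groups. Paneth cell markers summed to 20319 to 27172 untreated and 3601 to 15581 after PAM from day 2, and 2 of the 3 (Lyz1 and Defa24) were called lower after PAM from day 1. In the same groups tuft cell markers summed to 84 to 133 against 38 to 68 (Pou2f3 called lower), and enteroendocrine markers to 1431 to 2473 against 2727 to 4542. The 5 epithelial markers summed to 82211 to 92997 untreated against 99974 to 145331. Some genes went against the sum of their list. Among them were Epcam (15909 to 17187 against 11396 to 15980), Neurod1 (62 to 95 against 34 to 78) and, of the immune markers, Cd68 (16 to 27 against 42 to 70). At low, overlapping values Cd3e (0 to 3 against 1 to 25) and Col1a2 (0 to 4 against 0 to 1) did so too. Of the sums in this paragraph only that of the immune markers overlapped between these groups, and the part of any of these lists in the results was not tested.

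Of the other genes of the pathway 48 of 50 listed symbols were found, and 21 were called lower after PAM from day 2 and none higher (median -0.94). After indirect CAP from day 2 there were 15 lower and none higher (-0.65), and after PAM from day 1 there were 9 lower and 1 higher (-0.63). Rpa2 and Rpa3, subunits of the protein that coats single-stranded DNA, were called lower in each of the 3 comparisons, and Rpa1 in the day 2 groups (-0.75 after PAM from day 1, not called). Rpa2 went from 835 ± 76.3 (n = 4) to 253 ± 29.8 (n = 3) after indirect CAP from day 2, a log2 fold change of -1.72.

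The largest falls of these other genes were those of Fignl1 (-2.83) and Rmi2 (-2.76) after PAM from day 2, Rpa2 (-1.72) and Clspn (-1.71) after indirect CAP from day 2, and Rmi2 (-1.80) and Tipin (-1.43) after PAM from day 1. Rmi2 is the partner of BLM, Clspn the adaptor through which ATR reaches CHEK1. Ercc1, a subunit of a crosslink-cutting nuclease, was the gene called higher, with 685 ± 125 against 292 ± 31.6 after PAM from day 1 (1.22, limma adjusted p = 0.000513).

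Calls were also counted in 3 other repair pathways. Non-homologous end joining, the route that rejoins ends without a template, had 1 of 9 called lower after PAM from day 2 (Prkdc, -1.16) and none after indirect CAP from day 2 or PAM from day 1, with medians of -0.55, -0.26 and -0.35. Nucleotide excision repair had 1 of 17 after PAM from day 2 (Gtf2h5, -1.11), none after indirect CAP from day 2 and 1 after PAM from day 1 (Ercc8, -1.02), with medians of -0.44, -0.19 and -0.21. Base excision and mismatch repair had 8, 6 and 6 of 24, with medians of -0.73, -0.45 and -0.66. Its largest falls after PAM from day 2 were in the glycosylases Neil3 (-3.13) and Ung (-2.74), which remove damaged bases and uracil.

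**Figure D5:**
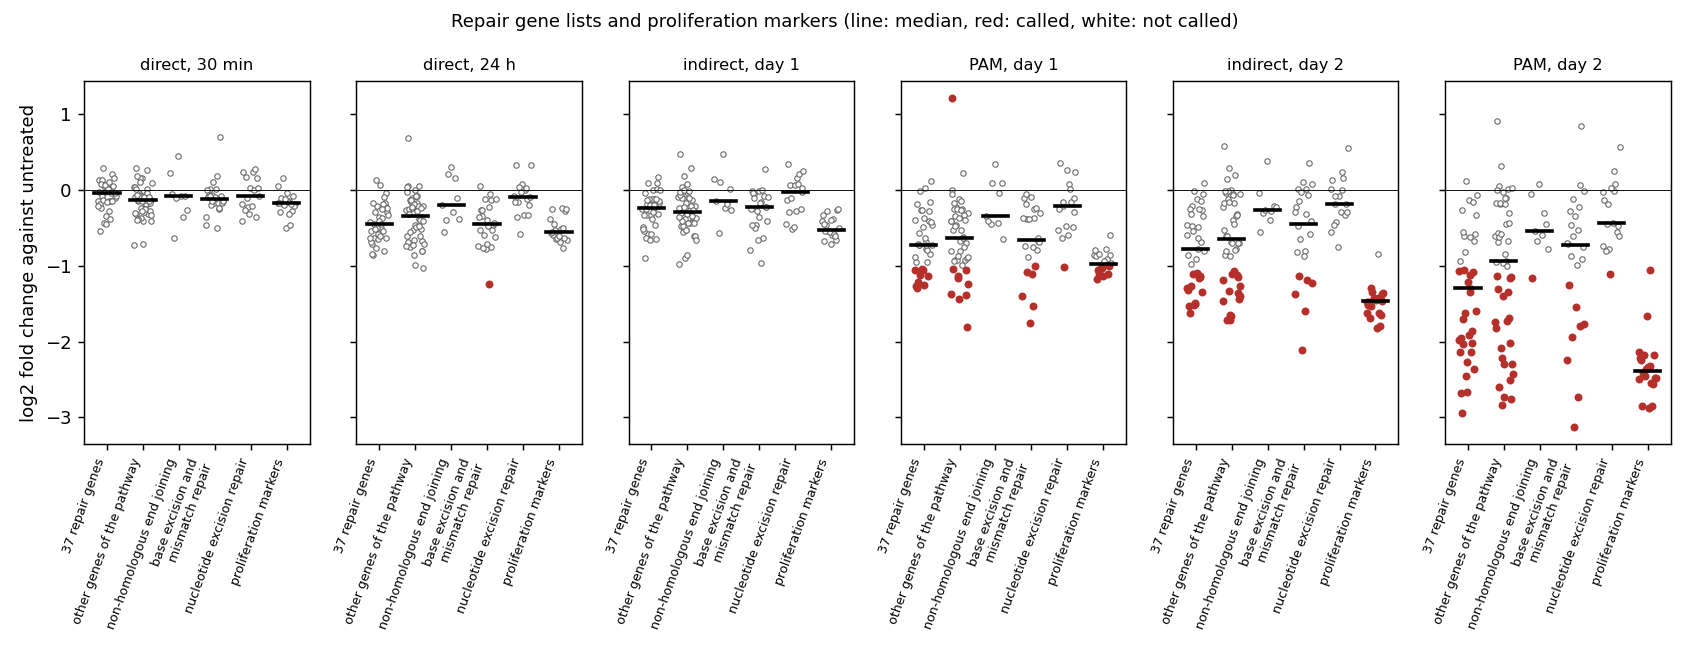
Log2 fold change against untreated of each gene (points) in the 37 repair genes, the other genes of the pathway, 3 other repair lists and the proliferation markers, by treated group, with the list's median (black line). Red points were called: with PAM from day 2 the medians were -1.30 for the 37 genes, -0.55 for non-homologous end joining and -2.39 for the proliferation markers.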

How the data were processed

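The authors trimmed reads with Trimmomatic 0.36, aligned them to GRCm38 with STAR 2.5.3a, counted them per gene of Ensembl release 90 with HTSeq 0.9.1, and tested counts with edgeR. Versions are those of the submitters' processing notes. The deposited value is a score, CP20M: read counts scaled by the authors to a common library total and rounded up (the values of a library sum to between 20007540 and 20016513), and not divided by gene length although the study's definition names kilobases. Because no raw counts were used, values were tested as log2(value + 1), and fold changes understate low genes.

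The limma 3.58.1 trended test (R 4.3.3) was fitted per comparison to all genes with a value of at least 10 in at least 3 of its libraries, with Benjamini-Hochberg adjustment over those genes. Calls needed an adjusted p below 0.01 together with a change of at least 1 on the log2 scale. Beside these calls, differences are described by group means, SDs and whether the ranges of the groups overlap. The method was tested on simulated data. Genes matched GENCODE vM21 by Ensembl identifier for 52489 of 52636 genes, which gave exon lengths, overlaps and GRCm38 positions. The gene list, the roles and the other lists were chosen with earlier results of these data known. All 37 genes were to be named, with values per library for at least 2 genes of each role where called, those called in the most comparisons with untreated first. Of the other lists, up to 2 called genes per comparison with the largest change were to be named, and Vrk2, Fsbp, Rpa1, Rpa3 and single calls were added after their values were seen. A result on a further gene of the pathway is not reported here.

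Replicates were organoid lines, shared between groups. Deviations from group means correlated at a median of 0.564 (0.219 to 0.806, 45 pairs) between treated libraries of a line. The median between lines was -0.33, but centring each group on its mean forces a negative value there when same-line values are positive. Because of the correlation within lines, an alternative took line as a replicate block. Untreated libraries of lines 1 and 2 correlated at 0.0751 and 0.132 with their own line and at 0.541 and 0.353 with the other, so both were left out in another alternative. Counts of 24 replicate pairs differed by more than sampling noise (mean chi-square per gene at least 13.5), so none were copies. Further alternatives left out each library in turn, applied quantile normalization, raised the pseudocount to 10, dropped the filter, fitted all 7 groups at once, or called at an adjusted p below 0.05 whatever the fold. Promoters were scanned and figures drawn with Python 3.11.15 and matplotlib 3.10.9.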

Additional observations from a re-analysis of the deposited data

Results flagged for a closer look

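In the untreated group of 4 libraries, 2 of the 37 genes had a library far from the others by Dixon's test at 95%, where chance gives about 1 in 20. Nbn was 579 CP20M in line 1 against 522 to 528 in the others, with a gap of 0.895 of the range. Rad51c was 79 in line 3 against 57 to 60, with a gap of 0.864.

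Fanca lay above every untreated library in all 3 libraries of direct CAP for 30 min and below every one in all 3 of PAM from day 2, where its log2 fold change was -1.09. The difference between these 2 groups was not tested.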

How the results depend on the processing

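No repair gene was called higher under any alternative, and no called log2 fold change changed sign. With both untreated libraries of lines 1 and 2 left out, the number called lower went from 23 to 0 for PAM from day 2, from 9 to 4 for PAM from day 1 and from 1 to 0 for the 9 joined libraries treated from day 1, with 13 for indirect CAP from day 2. In that setting 2 untreated libraries remain, and the genes called lower among all genes went from 1857 to 1 for PAM from day 2 and from 937 to 470 for PAM from day 1. The log2 fold changes of the 23 genes were -3.15 to -1.05, and their limma adjusted p was 0.0126 to 0.0341. Quantile normalization gave 19 and 5 for PAM from day 2 and day 1, 12 for indirect CAP from day 2 and 0 for the 9 libraries, and it moved the median of all genes with PAM from day 2 from -0.12 to -0.01. A pseudocount of 10 also gave 0 for the 9 libraries. It lost Fancb (-0.97) and Rad51ap1 (-0.996) for PAM from day 1, and gained Rad51c for PAM from day 2. All 7 groups in one fit gave 9 lower with PAM from day 2 than from day 1, beside 547 lower and 335 higher of all genes. At an adjusted p below 0.05, whatever the fold, 31 and 27 were lower for PAM from day 2 and day 1, 27 and 9 for indirect CAP from day 2 and day 1, 21 for the 9 libraries, 16 for direct CAP for 24 h, and 11 for indirect CAP from day 2 against day 1.

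The replicate block gave 3 for indirect CAP from day 2 against day 1, beside 416 lower and 207 higher of all genes. Against untreated it gave 22 and 6 for PAM from day 2 and day 1 and 13 for indirect CAP from day 2. There it paired untreated lines 1 and 2 by label, although each was more like treated libraries of the other line. With PAM from day 1 Fancm, Rad51ap1 and Rad51b (adjusted p = 0.0105, 0.0116 and 0.0107) were no longer called, nor was Rad54b for indirect CAP from day 2. It changed no other call than these and Fance. Leaving out 1 library gave 21 to 25 and 6 to 12 for PAM from day 2 and day 1, 13 to 15 for indirect CAP from day 2, 0 to 2 for the 9 libraries, and 0 in all other comparisons. The cause of these changes was not tested. Values near 13 rest on few reads, and 3 libraries a group limit every interval.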
